A study of Mus musculus with 6 samples.

Results

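Phagocytes make superoxide with NADPH oxidase 2, and the transcripts of 5 of its subunits, Cybb, Cyba, Ncf1, Ncf4 and Rac2, are described here in primary mouse microglia, the macrophages that reside in the brain. They were chosen by gene name, and all 5 were found among 35275 genes in the count table and passed the filter on low counts. RNA of 6 microglia samples from C57/BL6 mice was sequenced, 3 labelled Control and 3 labelled Treg co-cultured. Treg stands for regulatory T cells, lymphocytes that hold back immune responses. In the second group the Tregs had been kept in permeable inserts for 24 hours over slices of brain removed 5 days after tMCAO, transient occlusion of the middle cerebral artery, a model of stroke. The inserts were then placed over the microglia for 2 days, and the comparison asks how this exposure alters microglial transcripts. No insert and no contact with slices is recorded for the controls, so effects of Tregs, of material from the slices and of the insert cannot be told apart. The labels name no age, sex or number of animals and do not say that replicates came from separate cultures, so the p-values below speak only of the spread among these 6 samples, part of which may be technical.

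The oxidase is assembled on demand. Its catalytic core, the glycoprotein encoded by Cybb, sits in the membrane with the smaller chain encoded by Cyba, which stabilises it and gives the cytosolic subunits a docking site. On stimulation the organiser encoded by Ncf1 is phosphorylated and moves to the membrane with the lipid-binding subunit encoded by Ncf4, and the GTPase Rac2 or Rac1 joins them. The complex then passes electrons from NADPH to oxygen on the outer face of the membrane or inside the phagosome, which serves killing of microbes, and in microglia it has been linked to injury of neurons and oligodendrocytes by oxidants. Loss of Cybb, Cyba, Ncf1 or Ncf4 in people causes chronic granulomatous disease.

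The libraries held between 16972758 and 22084542 counts. Microglial receptor and complement transcripts were abundant, with Csf1r at 2795 ± 28.4 TMM-scaled CPM in controls and 2476 ± 158 after co-culture (counts scaled to a common library size, mean ± SD, n = 3 per group, as throughout) and C1qc at 2252 ± 148 and 1977 ± 150.4 CPM. Of 11 microglia markers 3 rose and 6 fell, among them Trem2, and Tmem119 and P2ry12 were measured at 7.60 and 9.07 CPM in controls. Mitochondrially encoded genes took 1.32 to 1.38% of counts in controls and 0.636 to 0.772% after co-culture, and ribosomal protein genes 1.69 to 1.87% and 1.04 to 1.21%. The part of these shifts in the results below was not tested. In such bulk samples, fewer cells of a type and less RNA per cell cannot be told apart.

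The oxidase did not move as a unit. Cybb, Ncf1 and Ncf4 rose in microglia exposed to Tregs, by 22.5%, 49.5% and 34.1% of their control means, Cyba fell by 19.8%, and Rac2 was not called. Genes were tested with edgeR's quasi-likelihood F-test (two-sided) and called changed at a Benjamini-Hochberg adjusted p below 0.05 over all 13274 genes tested. By this rule 4 of 5 members were called, 3 higher and 1 lower, against 50.9% of all genes (25.9% higher, 25.0% lower). The same 4 differed by at least 1.2-fold, against 40.1% of all genes that were called with such a fold. The groups did not overlap at the same 4 members, against 57.2% of all genes. The median log2 fold change over the 5 members was 0.29, and over all genes tested it was -0.00996.

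**Figure D1:**
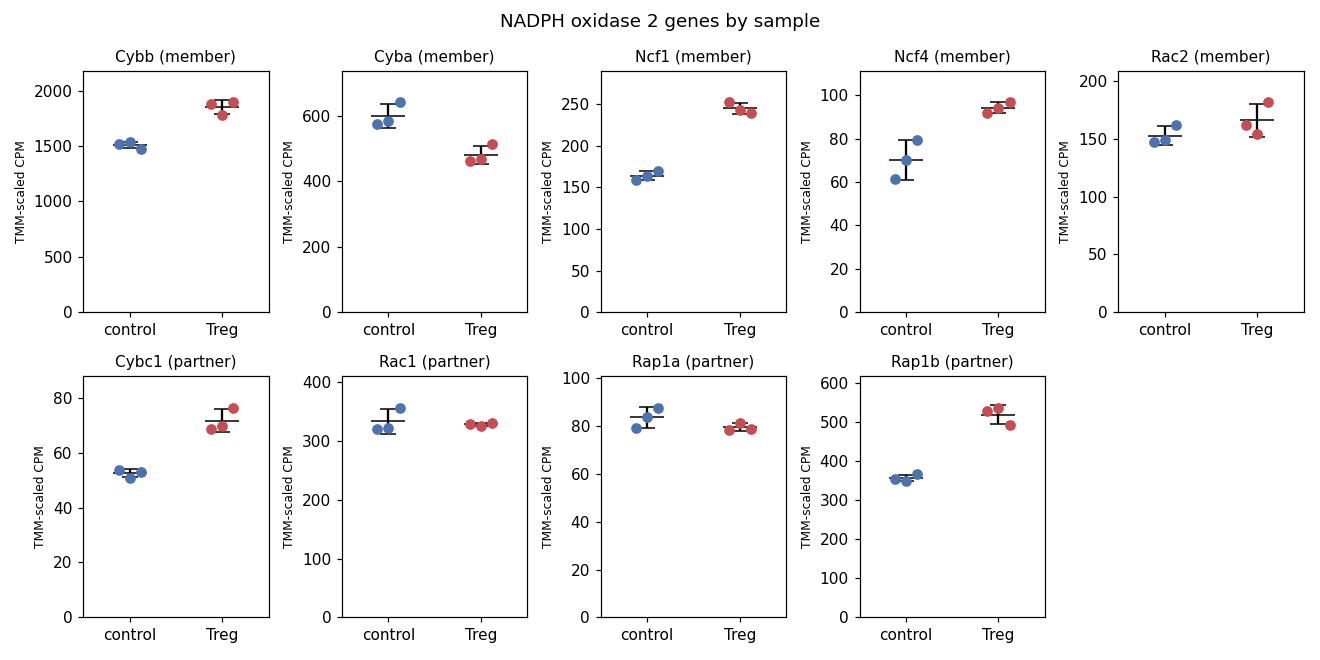
TMM-scaled CPM of the 5 members (upper row) and 4 partner genes (lower row) in each sample, with the group mean as a dash and the SD as a bar (n = 3 per group); each axis starts at 0. Cybb, Ncf1 and Ncf4 lie higher and Cyba lower in all 3 co-cultured samples than in all 3 controls, while the Rac2 values of the groups overlap.

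The membrane core split in direction. Cybb, the catalytic subunit (Ensembl ENSMUSG00000015340; chromosome X, 9435252 to 9487771, minus strand, GRCm38), was at 1522, 1533.5 and 1478 CPM in control replicates 1, 2 and 3 and at 1877, 1779 and 1897 CPM in the co-cultured ones. Every co-cultured sample was above every control, and the replicates of each group lay close together. The log2 fold change was 0.29 ± 0.05 (SE of the fit), with an adjusted p of 8.93e-06. By mean CPM, not per length, Cybb was 46th among the genes tested, with 26574 to 40143 counts per library.

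Cyba, which encodes the small chain that Cybb needs for stability (ENSMUSG00000006519; chromosome 8, 122424776 to 122432930, minus strand), went from 574, 584 and 642 CPM in controls to 462, 469 and 513 CPM. Replicate 3 was the highest sample in both groups, and the lowest control remained above the highest co-cultured sample. The log2 fold change was -0.32 ± 0.05 (SE), with an adjusted p of 7.06e-06. Cyba is a short transcript, 758 bases by the length that the deposited FPKM values imply. The 999 tested genes below 1000 bases had a median log2 fold change of -0.147, with 29.1% called lower and 13.5% higher. The 4451 genes of 4000 bases or more, Cybb among them, had a median of 0.021, with 25.5% lower and 30.7% higher. The part of transcript length in the Cyba result was not tested. The predicted gene Gm20388 runs across Cyba on the opposite strand and had 0 counts in all 6 libraries, and no 75-base stretch of Cyba, the read length, was shared with another gene's transcripts.

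The cytosolic organiser rose most among the members. Ncf1 (ENSMUSG00000015950; chromosome 5, 134220053 to 134229625, minus strand) was at 159, 163 and 169.8 CPM in controls and at 253, 244 and 239.8 CPM after co-culture. The gap between the groups was far wider than the range within either, and the log2 fold change was 0.58 ± 0.05 (SE, adjusted p = 8.04e-12). Its exons overlap those of Gtf2ird2 on the opposite strand, and 5.44% of the 75-base stretches of Ncf1 transcripts also lie in Gtf2ird2. The counts of Gtf2ird2 were 288 to 330 in control libraries and 257 to 284 in co-cultured ones, and it was not called (adjusted p = 0.0566), whereas Ncf1 had 2829 to 3705 and 4933 to 5401 counts. The sources used here do not say whether strand was used in counting.

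Ncf4, whose product binds phosphatidylinositol 3-phosphate on phagosomes through its PX domain (ENSMUSG00000071715; chromosome 15, 78244801 to 78262580, plus strand), was at 61.3, 70.2 and 79.6 CPM in controls and at 91.9, 94.1 and 96.9 CPM after co-culture. Its controls varied more than those of any other member, with a coefficient of variation of 13% against 2.62% in the co-cultured samples, yet the groups did not overlap. The log2 fold change was 0.42 ± 0.07 (SE, adjusted p = 2.60e-05), and it was 0.33 without control replicate 1 and 0.52 without control replicate 3.

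Rac2, a Rac GTPase found mainly in blood cells (ENSMUSG00000033220; chromosome 15, 78559167 to 78572783, minus strand), lies 296.6 kb from Ncf4. It was at 147, 149 and 162 CPM in controls and at 162, 154 and 182 CPM after co-culture, so that co-cultured replicate 2 fell inside the control range. The log2 fold change of 0.12 ± 0.06 (SE) was not called (adjusted p = 0.0853). Its adjusted p was 0.0262 without control replicate 3, 0.0283 without co-cultured replicate 2 and 0.536 without co-cultured replicate 3.

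**Figure D2:**
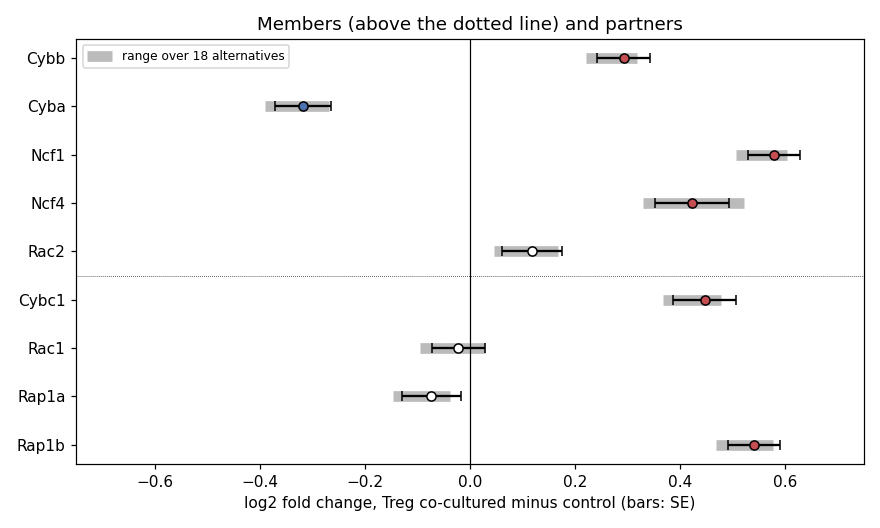
Log2 fold change (Treg co-cultured minus control) of the 5 members, above the dotted line, and of 4 partner genes, with the SE of the edgeR fit as a bar; red points were called higher, blue points lower and white points were not called, and grey bands span 18 alternative analyses. Cyba lies left of 0 and Cybb, Ncf1, Ncf4, Cybc1 and Rap1b right of it over their whole bands.

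Start sites of 3 of 5 members, Cybb, Ncf1 and Cyba, were matched in the RefSeq promoter table (GRCm38.p6). These 3 are shown because no start site of Ncf4 or Rac2 was matched there. Ncf4, which also rose, therefore has no window to compare. Each window runs from 250 bases before to 50 after the start, 5′ to 3′ on the gene's strand. Capitals mark matches, on either strand, to 6 motifs: GAGGAA, as bound by the myeloid factor PU.1; the interferon-stimulated response core, which reads GAAA, any 2 bases and GAAA; the ETS-IRF composite, which reads GGAA, any 2 bases and GAAA and can overlap the others; TTCNNNGAA, the core of gamma-activated sites that STAT factors bind; TGACTCA for AP-1; and TATAAA, the TATA box.
Cybb, chrX:9469275-9469574, minus strand: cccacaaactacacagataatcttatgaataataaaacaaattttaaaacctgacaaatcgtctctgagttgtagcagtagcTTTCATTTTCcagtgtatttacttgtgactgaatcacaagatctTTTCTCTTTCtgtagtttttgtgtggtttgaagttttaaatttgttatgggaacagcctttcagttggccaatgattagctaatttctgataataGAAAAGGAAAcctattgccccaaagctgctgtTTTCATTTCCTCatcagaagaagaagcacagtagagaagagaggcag
Ncf1, chr5:134229576-134229875, minus strand: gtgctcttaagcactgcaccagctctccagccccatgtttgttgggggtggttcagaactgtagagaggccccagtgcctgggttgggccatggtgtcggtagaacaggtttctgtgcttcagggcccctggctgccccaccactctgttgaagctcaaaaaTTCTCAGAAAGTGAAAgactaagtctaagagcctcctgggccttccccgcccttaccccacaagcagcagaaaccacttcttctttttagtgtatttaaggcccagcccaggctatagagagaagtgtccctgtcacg
Cyba, chr8:122432891-122433190, minus strand: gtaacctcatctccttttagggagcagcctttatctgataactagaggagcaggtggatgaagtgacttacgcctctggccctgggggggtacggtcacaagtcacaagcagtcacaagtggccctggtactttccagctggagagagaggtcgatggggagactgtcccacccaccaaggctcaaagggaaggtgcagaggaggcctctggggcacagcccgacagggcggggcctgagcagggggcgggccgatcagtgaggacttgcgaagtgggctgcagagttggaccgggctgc

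The Cybb window held the interferon-stimulated response core at 3 places. Counted from the start, which is base 1, it began at -168 and -124 on the opposite strand and at -29 on the gene's strand. The window also held the ETS-IRF composite on the opposite strand from base 4, overlapping GAGGAA on the opposite strand from base 10. The Ncf1 window held TTCNNNGAA from base -88, overlapping an interferon-stimulated response core from base -82. In the Cyba window none of the 6 motifs was found, which says only that these letters are not there. Among partner genes that rose, described below, the Rap1b window held none of the 6 either. The Cybc1 window from 121229260 held none, and that from 121228891 held GAGGAA alone, from base -184. Of 32851 RefSeq windows of 300 bases, 3.44% held the interferon-stimulated response core, 2.72% the ETS-IRF composite, 8.3% TTCNNNGAA, 28.3% GAGGAA, 5.2% TGACTCA and 13.6% TATAAA. These matches are letters in a reference sequence, binding was not measured, and their part in the changes was not tested.

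Per length, the membrane core far exceeded the cytosolic subunits. In deposited FPKM (counts scaled to gene length and to the library total), Cyba stood at 809 ± 46.2 and Cybb at 325 ± 7.34 in controls, followed by Ncf1 at 58.2 ± 1.60, Rac2 at 51.4 ± 2.49 and Ncf4 at 49.1 ± 6.19. Rac2 and Ncf4 did not differ there beyond their spread. After co-culture the order was Cyba at 620.3 ± 38.8 FPKM, Cybb at 380.4 ± 11.97, Ncf1 at 83.2 ± 1.65, Ncf4 at 62.9 ± 2.03 and Rac2 at 53.4 ± 4.67. The highest Rac2 value, 58.6 FPKM, was then below the lowest Ncf4 value, 60.8 FPKM. The order of the last 3 depends on the gene length: with exon lengths from GENCODE M21, TMM-scaled CPM per kilobase in controls was 49.2 for Rac2, 44.8 for Ncf1 and 34.8 for Ncf4, with Cyba (577) and Cybb (260.2) again on top.

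The balance between the subunits shifted accordingly. Cyba made up 61.8 to 63.9% of the summed FPKM of the 5 genes in controls and 50.4 to 52.7% after co-culture, and Cybb 23.5 to 26.2% and 31.0 to 32.7%. The ratio of Cybb to Cyba FPKM within a sample, which does not depend on library scaling, was 0.423, 0.419 and 0.367 in controls and 0.649, 0.605 and 0.589 after co-culture. The groups did not overlap, and the log2 ratio rose from -1.31 ± 0.11 to -0.70 ± 0.07 (SD), a difference of 0.61. Of 5 such ratios compared, those of Cybb to Cyba, Rac2 to Rac1 and Ncf1 to Cybb did not overlap between groups. Each of these had an exact permutation p of 0.1 (two-sided), the smallest that 3 samples against 3 allow, and an adjusted p of 0.167 over the 5 ratios.

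**Figure D3:**
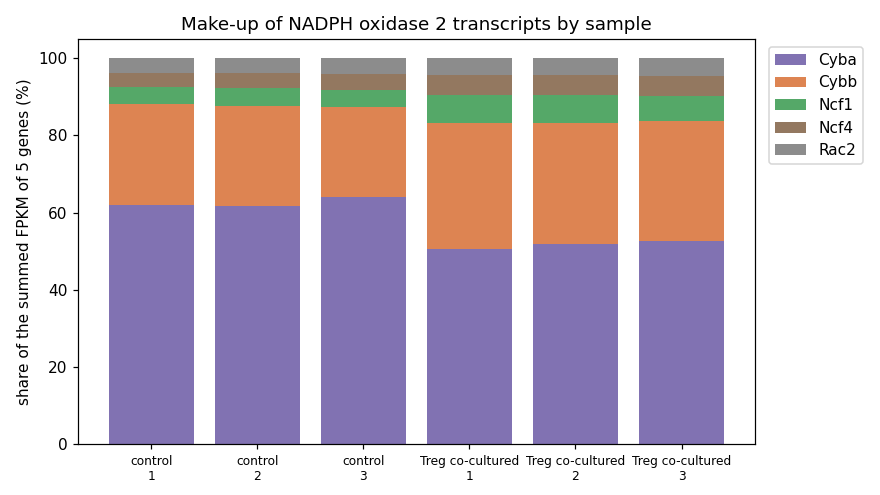
Share of each member in the summed FPKM of the 5 genes, in percent, with 1 stacked bar per sample. Cyba takes 61.8 to 63.9% in the control samples and 50.4 to 52.7% in the co-cultured ones.

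Ncf1 gained on Cybb, from 0.173, 0.176 and 0.190 of its FPKM in controls to 0.222, 0.226 and 0.208, a log2 difference of 0.29. Ncf4 did not separate from either: its log2 ratio to Cybb differed by 0.14 (exact permutation p = 0.4) and that to Ncf1 by -0.15 (exact permutation p = 0.3), and the groups overlapped in both. Control replicate 1 had the lowest Ncf4 ratio to Cybb, 0.131, and without it the log2 difference was 0.037. Rac2 relative to Rac1 was at 0.351, 0.355 and 0.347 in controls and at 0.377, 0.363 and 0.421 after co-culture, a log2 difference of 0.14 that was 0.075 without co-cultured replicate 3. The FPKM of Rac2 itself overlapped between groups. The Rac1 count is uncertain, since 49.7% of its 75-base stretches also lie in Daglb, as described below.

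**Figure D4:**
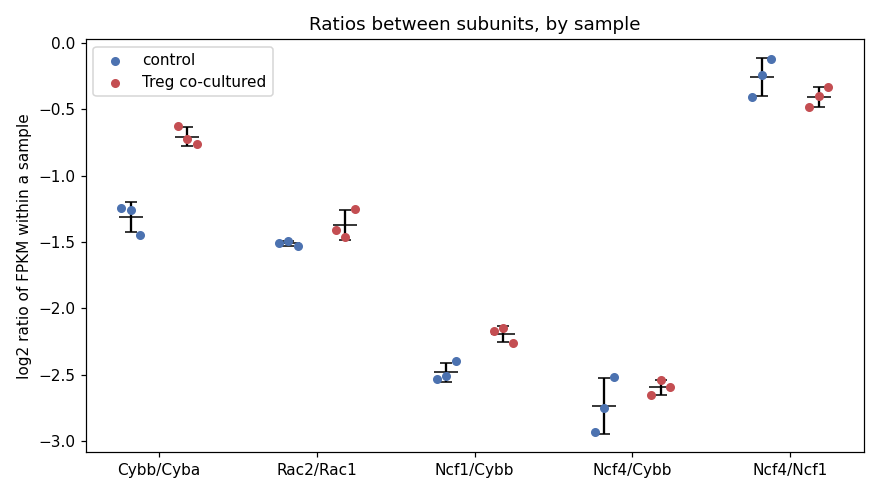
Log2 ratio of FPKM between subunits within each sample, with the group mean as a dash and the SD as a bar (n = 3 per group). The ratio of Cybb to Cyba separates the groups most widely, and the ratios of Ncf4 to Cybb and to Ncf1 overlap.

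Among close partners of the subunits, Cybc1 and Rap1b rose. Cybc1, a chaperone of the endoplasmic reticulum without which the Cybb and Cyba proteins are not made in normal amounts, rose with Cybb. The table lists it under an older symbol, and it was joined by its identifier. It went from 53.7, 50.8 and 53.0 CPM to 68.7, 69.9 and 76.5 CPM, and the log2 fold change was 0.45 ± 0.06 (SE, adjusted p = 1.40e-07). Hexdc overlaps it on the opposite strand.

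Of the small GTPases, Rap1b rose from 357 ± 8.24 to 520 ± 24.2 CPM (adjusted p = 4.13e-11). Its close relative Rap1a encodes the protein that was found bound to the purified cytochrome of neutrophils. Rap1a was at 83.5 ± 4.35 and 79.4 ± 1.68 CPM and was not called (adjusted p = 0.285), but it was lower with upper-quartile scaling (adjusted p = 0.0288). Rac1, the widely expressed relative of Rac2, was at 333 ± 20.6 and 328 ± 3.00 CPM (adjusted p = 0.744). Of the 75-base stretches of Rac1 transcripts 49.7% also lie in Daglb, which overlaps it on the opposite strand, so the Rac1 count is uncertain.

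Other NADPH oxidases were close to undetected. Nox1, Nox3, Nox4, Duox1 and Duox2, the catalytic subunits used by other tissues, had at most 14 counts in any library, and Noxa1, an activator used in epithelia, had 0. Of 9 such genes, Noxo1, the counterpart of Ncf1, was the 1 that could be tested, where controls had 15, 21 and 20 counts against 9, 8 and 11. It was called lower (adjusted p = 0.0403) but not under 9 of 18 alternatives.

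Regulators of Rac divided. Of 12 exchange factors, GTPase-activating proteins and inhibitors, 5 rose, 3 fell and 4 were not called. Of all genes tested, 25.9% were called higher and 25.0% lower. Rises and falls side by side are therefore not particular to this list or those below. Vav1, the Rac exchange factor of blood cells downstream of Fc receptors and integrins, rose from 330.4 ± 11.9 to 494 ± 21.6 CPM (adjusted p = 9.86e-12), and its relative Vav3 from 68.8 ± 3.75 to 96.2 ± 2.78 CPM. The broadly expressed Vav2 fell from 105 ± 2.78 to 73.0 ± 3.43 CPM. Arhgap25, which switches Rac off in phagocytes, fell from 224 ± 5.20 to 108 ± 5.25 CPM (adjusted p = 4.13e-18). The list's median log2 fold change was 0.079.

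Of 19 tested kinases and other regulators of the oxidase, 6 rose, 7 fell and 6 were not called (median log2 fold change -0.058). Hvcn1, the proton channel that offsets the charge the working oxidase moves across the membrane, fell from 145 ± 2.32 to 80.8 ± 2.73 CPM, a log2 fold change of -0.85 ± 0.05 (SE, adjusted p = 2.51e-15). Pla2g4a, the phospholipase that releases arachidonic acid, rose from 19.5 ± 0.635 to 38.8 ± 5.00 CPM. The kinases Mapk3 and Pak1, which phosphorylate cytosolic subunits, fell from 279 ± 10.2 to 208 ± 6.78 CPM and from 49.7 ± 2.57 to 36.1 ± 2.25 CPM. Nrros, named here after its values were seen and counted among the 6 that rose, limits the oxidase by promoting degradation of the Cybb protein. It rose from 254 ± 2.96 to 314 ± 7.54 CPM (adjusted p = 1.85e-06).

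Receptors and adaptors that trigger the oxidase were mixed as well, 7 higher, 5 lower and 4 not called of 16 (median log2 fold change 0.034). Fcgr2b, an inhibitory Fc receptor named here after its values were seen, is counted among the 5 lower. The activating Fc receptor Fcgr4 rose from 94.7 ± 3.54 to 234 ± 4.63 CPM (log2 fold change 1.31, adjusted p = 1.02e-20), Fcgr1 by 2.51 and the formyl peptide receptor Fpr1 by 5.71 on the log2 scale. The beta-glucan receptor Clec7a fell by 2.22 on that scale. Fpr1 had control values of 0.453, 0.231 and 0.138 CPM, so its fold change is less certain.

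Among 15 tested transcription factors known to act on Cybb, Ncf1 or Ncf4, 9 rose, 3 fell and 3 were not called, and the median log2 fold change was 0.35. Jun, a subunit of AP-1, rose from 108 ± 4.496 to 164 ± 6.27 CPM (adjusted p = 1.19e-11) and the ETS factor Elf1 from 88.1 ± 3.73 to 122 ± 5.29 CPM. Bcl6, a repressor, rose from 91.4 ± 4.996 to 187 ± 12.5 CPM. Spi1, which encodes PU.1, and Irf8 were named after their values were seen. Spi1 rose from 286 ± 23.04 to 334 ± 7.17 CPM (adjusted p = 6.17e-04), and Irf8 was at 365 ± 5.27 and 364 ± 17.7 CPM (adjusted p = 0.945).

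Genes that supply NADPH or belong to the pentose phosphate pathway were split, with 4 higher, 5 lower and 5 not called of 14 (median log2 fold change -0.086). Idh1, the cytosolic isocitrate dehydrogenase, fell from 203 ± 6.32 to 128 ± 3.67 CPM (adjusted p = 5.12e-13), and the mitochondrial transhydrogenase Nnt and NAD kinase Nadk2 fell from 36.6 ± 2.79 to 25.2 ± 1.02 and from 17.9 ± 0.692 to 14.3 ± 0.542 CPM. Rpe, of the branch of the pentose phosphate pathway that makes no NADPH, rose from 27.4 ± 2.44 to 35.1 ± 3.05 CPM. Rpia and Taldo1 of the same branch, named here after their values were seen, are also counted among the 4 higher. The count of called genes on this list was 5 without co-cultured replicate 1.

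Of 20 genes that remove superoxide and peroxide or serve other antioxidant defence, 9 rose, 5 fell and 6 were not called. Their median log2 fold change was 0.11. The peroxiredoxin Prdx5 rose from 197 ± 14.1 to 382 ± 17.4 CPM (adjusted p = 3.22e-16), the mitochondrial superoxide dismutase Sod2 from 70.7 ± 1.72 to 101 ± 0.217 CPM and the glutathione reductase Gsr from 78.3 ± 3.26 to 129 ± 14.1 CPM. Prdx4, the peroxiredoxin of the endoplasmic reticulum, fell from 49.4 ± 5.54 to 28.3 ± 3.101 CPM.

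**Figure D5:**
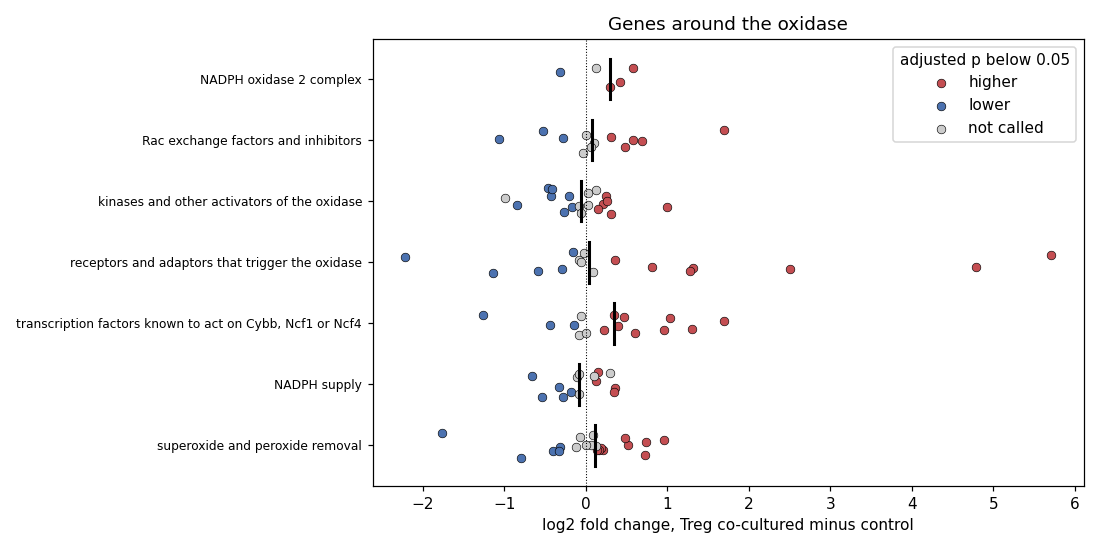
Log2 fold change (Treg co-cultured minus control) of each tested gene in 7 lists, 1 point per gene, red for called higher, blue for called lower and grey for not called at an adjusted p below 0.05, with the list median as a black bar; vertical scatter within a list has no meaning. The 5 members lie between -0.32 and 0.58, while the trigger receptors run from -2.22 to 5.71.

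Neutrophils, monocytes and T cells also carry oxidase subunits. Of 11 neutrophil markers, 7, among them Ly6g, Mpo, Elane and S100a9, had 0 counts in every library. The list's summed level was 219 to 230.0 CPM in controls and 118 to 128 CPM after co-culture, nearly all of it Csf3r (222 ± 5.86 and 119.95 ± 4.87 CPM), and 0 of 2 tested markers rose. Of 12 T cell markers, Trac, Cd2 and Ctla4 had 0 counts in every library, and Cd3e had 0, 0 and 0 in controls and 10, 2 and 3 after co-culture. Their summed level was 14.3 to 15.2 and 14.9 to 15.99 CPM, with Cd4 higher and Foxp3 and Ikzf2 lower.

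Of 10 monocyte and border macrophage markers, 5 were tested and 4 rose, and the summed level went from 714 to 754 CPM in controls to 1178 to 1264 CPM after co-culture. Mrc1 and Ms4a7, the most abundant, were at 270.4 ± 7.14 and 439 ± 21.8 CPM in controls and at 448 ± 23.1 and 568 ± 27.4 CPM after co-culture, whereas Ly6c2, Cd163, Lyve1 and Plac8 had at most 10 counts in any library. Of 7 oligodendrocyte markers 6 fell, with summed levels of 144 to 159.6 and 72.5 to 77.9 CPM. Of the other lists, astrocyte markers had 2 higher and 1 lower of 6, and neuron markers 0 higher and 1 lower of 5. Endothelial and mural markers had 2 higher of 3 tested, and B cell markers 0 of 1 tested. Each of these lists, taken separately, summed to at most 41.4 CPM in any library. The part of these markers in the results on the oxidase was not tested.

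The genes whose profile over the 6 samples was most like that of a member were sought among 5041 others with a mean of at least 5 log2 CPM, by the root mean square (RMS) difference of log2 CPM after centring. For Cybb they were Hgs (0.0126) and Ehbp1l1 (0.0179), for Cyba Rps15a (0.0169) and Bax (0.0257), and for Ncf1 Ccnk (0.0148). Ncf4 had Arpc3 (0.035) and Nuak2 (0.04), and Rac2 had Dcaf5 (0.029) and Fundc1 (0.0338). With 2 groups of 3 samples, such likeness mainly records a similar size of change. When genes were ranked by correlation instead, 1 of the 10 nearest genes was named again.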

How the data were processed

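Primary microglia were profiled in 2 groups of 3 samples. RNA taken up in Trizol was, per the labels' protocols, converted to cDNA with the SMART-Seq HT kit, tagmented with Nextera XT and sequenced in pairs of 75 bases. Reads were processed with STAR and HTSeq 0.11.2 on GRCm38, per the submitters' processing notes. The sources used here give neither annotation release nor counting options. The authors deposited raw read counts per gene, keyed by identifier or by gene name, and FPKM values. FPKM followed from the counts, with 1 implied length per gene (relative tolerance 1e-06) at 12011 of 12011 genes checked.

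From the counts keyed by identifier, edgeR 4.0.16 (R 4.3.3) kept 13274 genes (filterByExpr), scaled by TMM and fitted group alone (robust quasi-likelihood, legacy mode). Likeness used log2 CPM with a prior count of 2. Members and lists were chosen with earlier results of these data known, and lists (18, with 191 entries) are described by counts, with no set test. Besides the members and partners, up to 4 tested genes with the smallest adjusted p are named per pathway list, and per marker list the 2 most abundant and at most 2 of smallest adjusted p. Some genes that the rule names are not reported here. Genes named outside this rule are marked, except markers at or near 0, those given to check the tissue label and genes overlapping a member. Rubcn, Cybc1 and Clec7a were joined by identifier. Alternatives used DESeq2 1.42.0, limma 3.58.1, other scaling, filters and tables, a replicate block, and each library left out. Same-group libraries differed by more than sampling noise (chi-square per gene at least 3.17). Simulated counts were used to test the code. Loci and shared 75-base stretches come from GENCODE M21 (GRCm38), and promoters from RefSeq GRCm38.p6.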

Additional observations from a re-analysis of the deposited data

How the results depend on the processing

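Cybb, Cyba, Ncf1 and Ncf4 kept their direction and their call under all 18 alternatives, with log2 fold changes of 0.22 to 0.32, -0.39 to -0.27, 0.51 to 0.60 and 0.33 to 0.52 and highest adjusted p-values of 0.00283, 0.00127, 5.21e-06 and 0.00435. Rac2 ranged from 0.047 to 0.17 when a library was left out. All genes called ranged from 6028 to 6821. Upper-quartile scaling, library totals and FPKM lowered the share of rises among called genes from 50.8% to 40%, 41% and 40.7%, with 2731 higher and 4090 lower under the first, and Cybb was then at 0.22 to 0.23. Same-numbered samples did not deviate together (correlations of -0.033, -0.023 and -0.027), and no sample correlated best with its own number. These correlations cannot tell whether same-numbered samples shared a culture or day. With the number as a replicate block 6755 genes were called and Rac2 passed the threshold at 0.12 (adjusted p = 0.0416). Noxo1 was the 1 called gene on its list, and 0 were called there with DESeq2, with no filter, with 10 counts in every library (where it was left out) and with the block. Leaving out libraries gave 0 to 1 genes on that list, 5 to 10 for NADPH supply, 1 to 2 for neutrophil markers and 0 to 1 for neuron markers. The cause was not tested. The log2 ratio of Cybb to Cyba ranged from 0.54 to 0.65. Depth limits the other NADPH oxidases, most at 14 counts or fewer per library, and does not limit the members, at 1216 counts or more.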
